A study of Mus musculus with 6 samples.

Results

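Ugp2, Ugdh and Uxs1 encode the consecutive enzymes that turn glucose 1-phosphate into UDP-glucose, UDP-glucuronate and UDP-xylose. They were chosen by name, as the route to the sugar donors of glycosaminoglycan chains, and with earlier results of these arrays known, among them the differences of Ugp2 and Ugdh. The differences between the groups are therefore a description, and the p-values beside them, from the fit over all probe sets, support nothing further. Probe sets were matched through the RefSeq accession in their identifier, and a gene with several was to be represented by the brightest over the 6 arrays. All 3 genes were measured, each by 1 probe set, among 909 named genes and 1246 probe sets. The samples were 3 of total liver RNA from male diabetic mice and 3 from male healthy wildtype mice, each on a separate array. The labels speak of insulin-deficient diabetes, and give neither how it was brought about nor the strain or age of either group. The design text asks about lower levels of glycosaminoglycan enzymes and a possible effect on plasma lipid turnover.

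UGP2 (UDP-glucose pyrophosphorylase) joins glucose 1-phosphate to UTP, and its product UDP-glucose feeds glycogen synthesis in hepatocytes. UGDH (UDP-glucose dehydrogenase) oxidises UDP-glucose to UDP-glucuronate, the donor for heparan and chondroitin chains, for hyaluronan and for the glucuronidation of bilirubin and drugs. UXS1 (UDP-xylose synthase) removes a carboxyl group from UDP-glucuronate in the Golgi and the endoplasmic reticulum. The UDP-xylose it makes gives the xylose that links a glycosaminoglycan chain to its core protein, and UDP-xylose is also a feedback inhibitor of UGDH.

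The promoters are shown because the 3 genes form 1 route, and the means of Ugp2 and Ugdh were both higher in diabetic liver while that of Uxs1 was not. Each is the stretch of 250 bases before an annotated start in RefSeq (build GRCm38.p6, minus strand for all 3 genes, printed 5′ to 3′ in the gene's direction). Capitals mark matches, on either strand, to any of 8 motifs. The GC box was searched as GGGCGG and the E-box as CACGTG. The forkhead motif was searched as TGTTTAC, the cyclic AMP response element as TGACGTCA, and its partial site, which the full one contains, as TGACG. The partial glucocorticoid receptor site was searched as TGTTCT, the NF-Y box as CCAAT and the TATA box as TATAAA.
Ugp2, chr11:21371268-21371517: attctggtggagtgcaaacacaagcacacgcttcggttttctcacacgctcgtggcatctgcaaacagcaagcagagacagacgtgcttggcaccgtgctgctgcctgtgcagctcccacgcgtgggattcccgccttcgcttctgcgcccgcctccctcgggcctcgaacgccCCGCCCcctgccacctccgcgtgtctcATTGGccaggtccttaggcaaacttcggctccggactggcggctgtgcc
Ugdh, chr5:65435843-65436092: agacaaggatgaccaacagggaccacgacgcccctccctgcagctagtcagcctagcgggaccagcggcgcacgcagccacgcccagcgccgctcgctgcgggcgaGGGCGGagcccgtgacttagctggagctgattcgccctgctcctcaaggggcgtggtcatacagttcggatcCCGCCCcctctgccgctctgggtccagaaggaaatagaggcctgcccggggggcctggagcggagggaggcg
Uxs1, chr1:43827840-43828089: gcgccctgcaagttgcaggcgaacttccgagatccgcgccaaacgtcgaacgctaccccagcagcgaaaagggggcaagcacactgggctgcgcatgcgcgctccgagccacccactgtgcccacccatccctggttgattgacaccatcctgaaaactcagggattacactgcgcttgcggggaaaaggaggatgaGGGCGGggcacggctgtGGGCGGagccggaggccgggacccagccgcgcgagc
All 3 windows held GGGCGG, at 1 place in Ugp2 and at 2 places each in Ugdh and Uxs1, and 32.7% of the 32851 windows of this length in the table hold it. The Ugp2 window also held CCAAT, which 33.8% of all windows hold. The other 6 motifs had no match in these 3 windows, and the share of all windows holding them ran from 1.55% for TGACGTCA to 17.8% for TGACG. The windows were 64.0% (Ugp2), 69.2% (Ugdh) and 66.0% (Uxs1) G and C, against a median of 52.4% over all windows. Ugp2 has a second annotated start, whose window held GGGCGG at 2 places and no other of these motifs. A match is a description of letters, not a binding site.

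Ugp2 had the clearest separation of the 3 genes. Its log2 expression was 9.75, 9.53 and 9.32 in diabetic livers 1 to 3, against 9.06, 8.58 and 8.66 in wildtype livers 1 to 3. The lowest diabetic array lay 0.26 above the highest wildtype array, so the groups did not overlap. Such a separation, with every diabetic array above every wildtype array, was found in 4.57% of the 1246 probe sets. Ugp2 averaged 9.53 ± 0.21 over the diabetic and 8.76 ± 0.26 over the wildtype arrays (SD, n = 3 each).

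The Ugp2 difference, diabetic minus wildtype, was 0.77 on the log2 scale (SE 0.17, 95% confidence interval 0.37 to 1.17), a fold of 1.70 with an interval of 1.29 to 2.25. It did not pass the threshold of 0.05 (limma adjusted p over all probe sets = 0.619). Its unadjusted limma p of 0.00298 was number 6 in order of smallness among 1246, and 8 probe sets, Ugp2 included, had a difference at least as large. Without any 1 array the difference lay between 0.66 (without diabetic 1) and 0.92 (without wildtype 1).

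Ugdh had a higher mean in diabetic liver, but its groups overlapped. Its log2 expression was 10.91, 10.64 and 11.14 in diabetic livers 1 to 3, against 10.36, 9.85 and 10.90 in wildtype livers 1 to 3. Wildtype 3 lay above diabetic 2 and close to diabetic 1, while wildtype 1 and wildtype 2 lay below every diabetic array. Ugdh averaged 10.90 ± 0.25 over the diabetic and 10.37 ± 0.52 over the wildtype arrays, which were the more spread out (SD, n = 3 each).

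The Ugdh difference was 0.53 (SE 0.27, 95% confidence interval -0.13 to 1.18; limma adjusted p = 0.928). Single wildtype arrays set its size. It was 0.27 without wildtype 2, which has the lowest Ugdh value of the 6 arrays, and 0.79 without wildtype 3. Of all probe sets, 19 had a difference at least as large as that of Ugdh, which was itself among them.

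Uxs1 showed no shift between the groups beyond the spread of the arrays. Its log2 expression was 6.67, 6.32 and 6.28 in diabetic livers 1 to 3, against 6.56, 6.21 and 6.53 in wildtype livers 1 to 3. The groups overlapped almost fully, and Uxs1 averaged 6.42 ± 0.21 over the diabetic and 6.44 ± 0.19 over the wildtype arrays (SD, n = 3 each). The difference was -0.014 (SE 0.15, 95% confidence interval -0.37 to 0.34; limma adjusted p = 0.99). On the fold scale the interval runs from 0.775 to 1.27, which leaves room for a modest change in either direction. The suffix of the Uxs1 probe set marks possible cross-hybridisation with related transcripts.

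**Figure D1:**
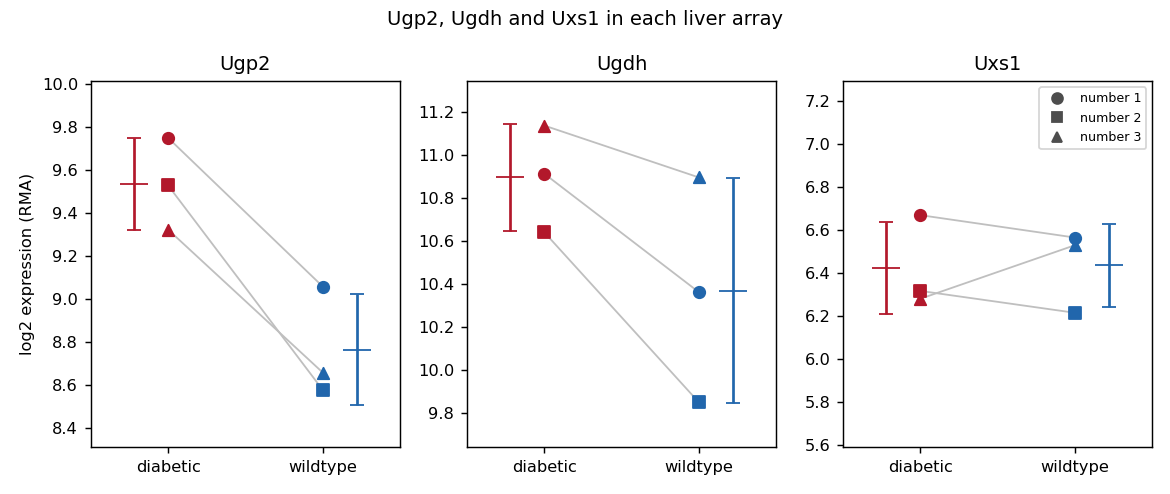
Log2 expression of Ugp2, Ugdh and Uxs1 on each array, diabetic on the left and wildtype on the right of each panel, with grey lines joining arrays of the same replicate number and bars giving the mean ± SD of 3 arrays. All 3 diabetic points lie above all 3 wildtype points for Ugp2, wildtype 3 lies above diabetic 2 for Ugdh, and the groups share their range for Uxs1; the panels span the same number of log2 units.

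Of the 3 enzymes, 0 passed the limma threshold, where 0.321% of all probe sets did so (4 of 1246, all higher in diabetic liver). With the replicate number as a block that count was 0 of 1246. At an unadjusted limma p under 0.05 stood 1 of the 3 enzymes, Ugp2, against 2.97% of all probe sets. With the block there were 2, Ugp2 and Ugdh, against 4.33% of all probe sets; Ugdh then had an unadjusted limma p of 0.0134, an interval of 0.18 to 0.88 and an adjusted p of 0.822. Over all 1246 probe sets the median difference was 0.0020, with 630 higher and 616 lower means in diabetic liver. The Ugp2 difference was larger than 99.4% of these, the Ugdh difference larger than 98.5% and the Uxs1 difference larger than 44.6%. The interval of Ugp2 lies above that of Uxs1 without overlap, while that of Ugdh overlaps both; whether the enzymes differ from each other in their change was not tested.

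**Figure D2:**
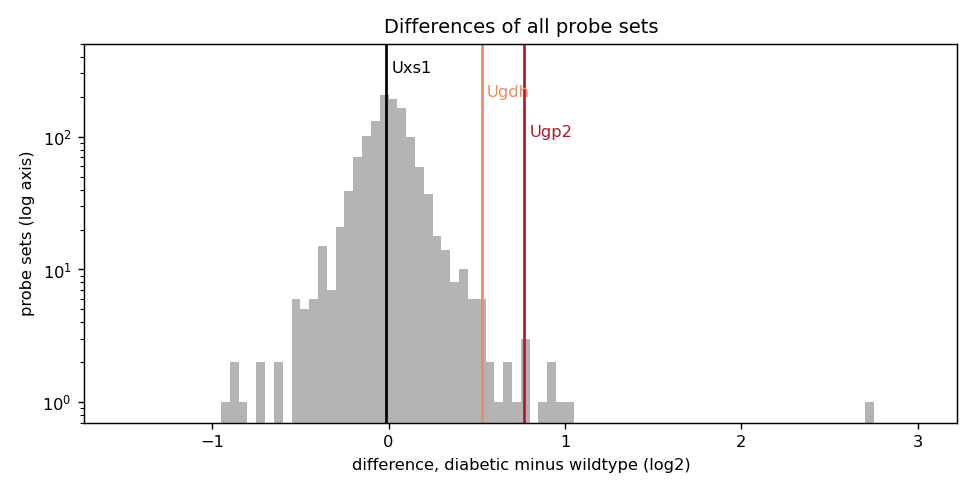
Histogram of log2 differences (diabetic minus wildtype) for all 1246 probe sets, with a logarithmic count axis and vertical lines at the 3 enzymes. Uxs1, at -0.014, lies in the centre of the distribution, and Ugdh, at 0.53, and Ugp2, at 0.77, lie in its upper tail.

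Arrays carry replicate numbers 1 to 3 in both groups, and the labels do not say what the numbers stand for. Deviations from the group means correlated between same-numbered arrays at 0.397, 0.138 and 0.162. Arrays of unlike number were not compared. For Ugp2, diabetic was above wildtype by 0.69 at number 1, by 0.95 at number 2 and by 0.66 at number 3. For Ugdh these differences were 0.55, 0.79 and 0.24. Diabetic was thus higher at all 3 numbers for both genes, which held for 14.3% of all probe sets. For Ugp2 this adds nothing, because it follows from the lack of overlap between the groups. For Uxs1 the differences were 0.10, 0.10 and -0.25, with no common direction.

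The numbers kept their order between the groups for Ugdh, which was highest at number 3 and lowest at number 2 in both. Ugp2 and Uxs1 were highest at number 1 in both groups, but numbers 2 and 3 changed places between the groups for each. Across the 6 arrays Ugp2 and Ugdh had a Pearson r of 0.548 (Spearman rho 0.6), Ugp2 and Uxs1 of 0.317 (rho 0.543), and Ugdh and Uxs1 of 0.349 (rho 0.257). These values are descriptions over n = 6 arrays that share group, number and normalization.

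Wildtype 2 gave the lowest value of the 6 arrays for all 3 enzymes, which it did for 16.9% of all probe sets. That share was not extreme, as it ran from 12.1% for diabetic 2 to 22.2% for wildtype 3. Wildtype 2 stood apart by another count. On it 40 of 1246 probe sets had a value more than 0.5 outside the range of the remaining arrays, against 1 to 21 for each other array. Without it the differences were 0.68 for Ugp2, 0.27 for Ugdh and -0.13 for Uxs1, and its part in the results beyond these values was not tested.

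**Figure D3:**
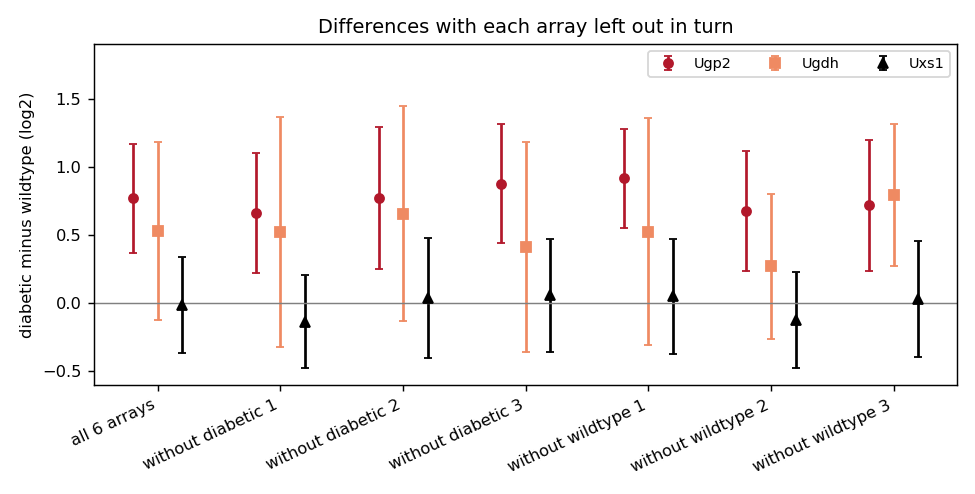
Log2 difference (diabetic minus wildtype) of Ugp2, Ugdh and Uxs1 with all arrays and with each array left out in turn, with limma's 95% confidence intervals. Ugp2 stays between 0.66 and 0.92, Ugdh moves between 0.27 and 0.79, and Uxs1 lies on both sides of 0, from -0.14 to 0.057.

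The wider pathway was covered by 9 lists of genes that supply, move or use these sugar donors or related sugars. The largest by measured genes, with 25, concerns other nucleotide sugars. Of 118 listed genes 69 were measured, and 0 of them passed the limma threshold in either direction, with or without the replicate block. Their median difference was 0.0069, close to that of all probe sets, with 36 higher and 33 lower means in diabetic liver. The groups did not overlap for 4 of the 69, where 7.87% of all probe sets had no overlap in either direction. The smallest limma adjusted p among the listed genes was 0.928, so the values that follow describe genes that did not pass. Of the 37 listed genes taken by the naming rule, 8 had the opposite sign without some array, and 34 either did so or shifted more than 1.5 times in size.

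The genes that supply glucose 1-phosphate gave 5 measured members, 2 with higher and 3 with lower means (median difference -0.036). Pgm1, the phosphoglucomutase that makes the substrate of UGP2, had log2 expression of 10.49, 10.25 and 10.32 in diabetic livers, against 10.25, 9.95 and 10.33 in wildtype livers. Its groups overlapped, and its difference was 0.18 (95% confidence interval -0.12 to 0.48), or 0.068 without wildtype 2. Its relatives Pgm2 and Pgm2l1 differed by -0.19 and 0.41, the last at a dim probe set, and the hexokinase Hk1 by -0.05. The glucokinase and glycogen synthase genes were not analysed here.

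In the Leloir pathway, which exchanges UDP-glucose for UDP-galactose, 2 of 3 measured genes had higher means (median difference 0.10). The galactokinase Galk1 averaged 8.40 ± 0.41 over the diabetic and 8.03 ± 0.21 over the wildtype arrays (SD, n = 3 each) and differed by 0.37 that was 0.15 without diabetic 1. The uridylyltransferase Galt differed by -0.01 and ran from -0.42 without wildtype 3 to 0.28 without wildtype 1. Galk2 differed by 0.10, at a dim probe set.

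All 10 listed transporters of the SLC35 family, which carry nucleotide sugars and related molecules into the Golgi and the endoplasmic reticulum, were measured, 5 with higher and 5 with lower means (median difference -0.0014). Slc35d1, which transports UDP-glucuronate, had log2 expression of 7.88, 7.92 and 8.44 in diabetic livers, against 8.43, 9.18 and 7.74 in wildtype livers. The wildtype values spanned the diabetic ones, and the difference was -0.37 (-0.73 without wildtype 3 and -0.0071 without wildtype 2). Slc35d2 differed by 0.55, with a range from 0.15 without wildtype 1 to 1.04 without wildtype 2. Slc35b4, a transporter of UDP-xylose, differed by -0.08, Slc35b1 by -0.20 and Slc35a5, at a dim probe set, by 0.32. Slc35e3 differed by 0.42, and by 0.064 without diabetic 3.

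Of 9 listed enzymes that spend UDP-glucose outside glycogen, 4 were measured. All 4 had lower means, where 616 of 1246 probe sets did so, with a median difference of -0.13 and 0 called. Ugcg, which makes glucosylceramide, averaged 7.24 ± 0.34 over the diabetic and 7.47 ± 0.11 over the wildtype arrays (SD, n = 3 each) and differed by -0.22 (95% confidence interval -0.64 to 0.19). Without diabetic 3 it was -0.42. Uggt1 and Uggt2, of the folding check of glycoproteins, differed by -0.21 (-0.010 without wildtype 2) and, at a dim probe set, by -0.03, and Alg5, which makes the dolichol-linked glucose of N-glycan assembly, by -0.06.

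The enzymes that use UDP-xylose gave 4 measured members, 2 with higher and 2 with lower means (median difference 0.010). Xylt1, which sets the linking xylose on core proteins, had log2 expression of 5.14, 5.22 and 4.97 in diabetic livers, against 5.26, 5.26 and 5.28 in wildtype livers. All its diabetic arrays lay below all its wildtype arrays, but the difference was small, at -0.16 (95% confidence interval -0.37 to 0.06). Its relative Xylt2 differed by -0.09 with overlapping groups, and by 0.17 without wildtype 2. Large2, which builds the matriglycan of dystroglycan from xylose and glucuronate, differed by 0.14, and the lowest diabetic array lay above the highest wildtype array.

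Enzymes that set glucuronate in chains gave 11 measured members, 6 with higher and 5 with lower means (median difference 0.015). B3gat3, which completes the linkage region of glycosaminoglycans, averaged 7.36 ± 0.31 over the diabetic and 7.49 ± 0.15 over the wildtype arrays (SD, n = 3 each) and differed by -0.13. Its difference ran from -0.30 without diabetic 1 to 0.0046 without diabetic 3. The heparan sulfate polymerases Ext1 and Ext2 differed by 0.10 and -0.16, with 0.053 for Ext2 without wildtype 2. The chondroitin enzymes Chsy1, at a dim probe set, and Chpf differed by -0.26 and -0.11, which were -0.049 and -0.057 without diabetic 1, and B4gat1, which primes matriglycan, by 0.15.

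The UDP-glucuronosyltransferases of detoxification, the other large users of UDP-glucuronate in liver, were covered by 6 of 22 listed genes, 4 with higher and 2 with lower means (median difference 0.0067). The 6 include Ugt8a, which uses UDP-galactose and is no enzyme of detoxification; without it 3 of 5 means were higher and the median was 0.010. Ugt2b5 averaged 12.83 ± 0.15 over the diabetic and 12.69 ± 0.06 over the wildtype arrays (SD, n = 3 each) and differed by 0.14. Its probe set is of a kind that may cross-hybridise with relatives, and a second, dimmer probe set gave 0.081. Ugt1a10, Ugt2a1 and Ugt2a2 had dim probe sets and differed by 0.22, -0.09 and -0.09. A second, dimmer probe set of Ugt2a2 went the other way, at 0.15. The single measured gene on free glucuronate, the lysosomal glucuronidase Gusb, differed by 0.24 (95% confidence interval -0.20 to 0.67).

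Genes for other nucleotide sugars and related sugar metabolism gave 25 measured members, 14 with higher and 11 with lower means (median difference 0.014). Pmm1, a phosphomannomutase, was the 1 gene of the 69 measured in all lists with an unadjusted limma p under 0.05. Of all probe sets 2.97% stood there. With the replicate block Pmm1 stood at an unadjusted limma p of 0.058. Then 3 other genes of the 69, Pgm2l1, Gmppb and Gnpda1, stood under 0.05 (limma adjusted p 0.457, 0.457 and 0.822), against 4.33% of all probe sets. Pmm1 had log2 expression of 5.52, 5.76 and 5.81 in diabetic livers, against 6.07, 5.85 and 6.06 in wildtype livers. The groups did not overlap, and the difference was -0.30 (SE 0.11; limma adjusted p = 0.928). Gmppb, which makes GDP-mannose, differed by -0.44, the fructokinase gene Khk by 0.37 and the glucosamine 6-phosphate deaminase Gnpda1 by 0.31. Gfpt1, the entry enzyme of the hexosamine route to UDP-N-acetylglucosamine, differed by -0.05, at a dim probe set. Over all arrays the Ugp2 difference, known when the gene was chosen, lay above the highest difference of every list. That order depends on wildtype 2, without which Ugp2 differed by 0.68 and Slc35d2 by 1.04. The Ugdh difference of 0.53 lay below the 0.55 of Slc35d2 over all arrays.

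**Figure D4:**
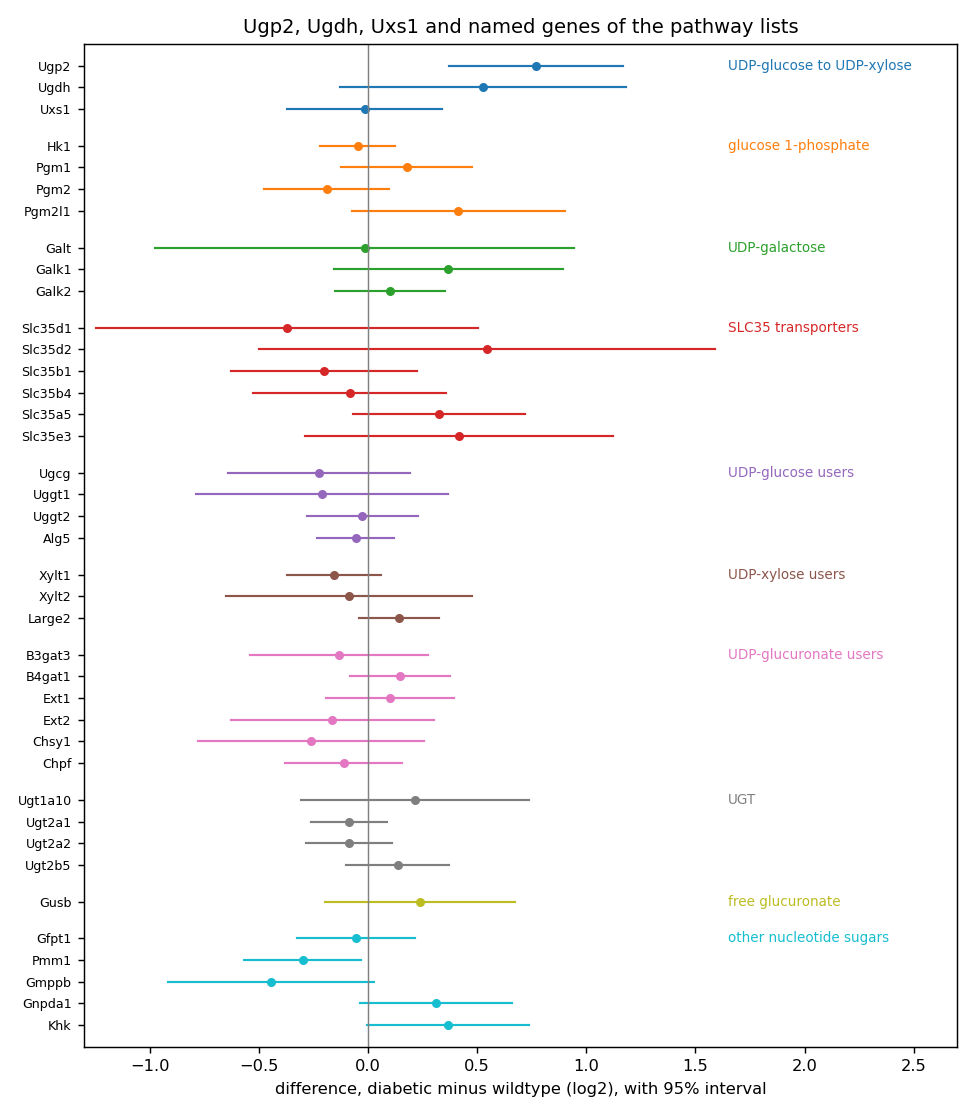
Log2 difference (diabetic minus wildtype), with limma's 95% confidence interval for Ugp2, Ugdh and Uxs1 (top) and for 36 named genes of the 9 lists, coloured by list. The interval of Ugp2, from 0.37 to 1.17, lies wholly above 0, that of Pmm1 lies below 0, and the intervals of the other genes drawn include 0; intervals are not adjusted for the number of genes.

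The genes whose pattern over the 6 arrays was most like that of each enzyme were taken by Pearson r among 908 other named genes, 3 per enzyme. For Ugp2 they were Clec4d, a lectin receptor of myeloid cells (r = 0.951), the growth factor Hgf (r = 0.951) and the scavenger receptor Colec12 (r = 0.938). All 3 were dim and moved little, with a range over the arrays of 0.25, 0.29 and 0.32 on the log2 scale, against 1.17 for Ugp2. For Ugdh they were Notch4 (r = 0.961), the ganglioside enzyme St3gal5 (r = 0.944) and the lysosomal amidase Aga (r = 0.939). Notch4, at a dim probe set, and Aga also moved little, with ranges of 0.31 and 0.42, against 1.29 for Ugdh. St3gal5 had a wider range than Ugdh, 2.29 against 1.29, with 10.95, 10.28 and 11.29 in diabetic livers, against 10.10, 9.25 and 11.55 in wildtype livers. Like Ugdh it was lowest at number 2 and highest at number 3 in both groups.

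For Uxs1 the genes most like it were the myristoyltransferase Nmt1 (r = 0.953), the phosphoserine phosphatase Psph (r = 0.946) and the dynactin subunit Dctn5 (r = 0.938). Their differences between the groups were -0.034, -0.11 and 0.11 on the log2 scale. A choice by likeness to Uxs1 over the same arrays favours differences near 0. Nmt1 and Dctn5 were lowest on wildtype 2, as Uxs1 was, and Psph on diabetic 3. Each r is the highest of a search over many genes with n = 6 arrays, and was not tested.

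The liver label was checked against marker genes. All 8 measured hepatocyte markers had means above the median of all probe sets, and they did not move together. Asgr1, a subunit of the hepatocyte asialoglycoprotein receptor, averaged 12.32 in both groups, while the plasma lectin Mbl2 differed by 1.03 (limma adjusted p = 0.0412, and 0.142 with the replicate block). Igfals, which binds IGF complexes in plasma, differed by -0.61 and Angptl4, a lipase inhibitor, by 0.97 (limma adjusted p = 0.928 for both). The mean level of the hepatocyte markers ran from 10.08 to 10.17 in diabetic livers, against 9.725 to 10.11 in wildtype livers. For 6 macrophage markers it ran from 5.59 to 6.36 in diabetic livers, against 5.74 to 6.17 in wildtype livers, and for 6 endothelial markers from 4.98 to 5.42 in diabetic livers, against 5.15 to 5.54 in wildtype livers. These ranges overlapped, as did those of 5 stellate cell markers, at 5.07 to 5.38 in diabetic livers and 5.08 to 5.70 in wildtype livers. For 5 lymphocyte markers, 4 of them dim, the level was 4.354 to 4.444 in diabetic livers, against 4.280 to 4.352 in wildtype livers. These ranges narrowly did not overlap. Taken singly, 0 of these 5 genes had groups without overlap, against 7.87% of all probe sets. At an unadjusted limma p under 0.05 stood 0 of them. The part of these other cell types in the results was not tested. In liver RNA, fewer cells of a type and less RNA per cell cannot be told apart.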

How the data were processed

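Liver RNA samples, 3 diabetic and 3 wildtype, were hybridised to a focused Affymetrix array, 1 per array. Per the labels, the authors deposited log2 values made with RMA (background correction, normalization between arrays, summary per probe set); no version is named in the sources used here. The log2 scale was read from the values, 2.03 to 13.45, with array medians of 4.93 to 5.06. No detection call was used; dim means a mean below the median of all probe sets. A shift shared by most probe sets would be hidden by the normalization. The number of arrays limits the precision.

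Of 1246 probe sets, 963 were named through a RefSeq table (GRCm38.p6, names only), giving 909 genes; of several probe sets the brightest over the 6 arrays stood for the gene. The groups were compared by limma 3.58.1 in R 4.3.3 (lmFit, eBayes, Benjamini-Hochberg over all probe sets, threshold 0.05), checked on simulated data. Nothing in the labels says that each array came from its own animal; if not, p-values measure only the spread between these samples. Deviations of same-numbered arrays correlated at 0.397, 0.138 and 0.162, and those of unlike number were not compared. The numbers were treated as pairs in an alternative fit with the number as a block. The alternatives were a median shift, quantile normalization, leaving out dim probe sets, eBayes with trend and robust settings, array weights, no moderation, a threshold of 0.10, the block, and each array left out.

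The members, lists and motifs were chosen with earlier results of these data known. Besides the 3 enzymes, the text names up to 4 measured genes of each list by smallest unadjusted p, a set of pathway genes, and the 3 most similar genes per enzyme; a further gene that the rule takes is counted in its list and is not reported here by name.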

Additional observations from a re-analysis of the deposited data

How the results depend on the processing

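The count of 4 probe sets past the threshold stayed at 4 at a threshold of 0.10, with array weights and after the median shift, and was 3 after quantile normalization and without the dim probe sets. It was 0 with the trend and robust settings, 0 with the replicate block and 0 in the ordinary linear model, and between 0 and 1 with 1 array left out; the last have fewer samples, and the cause was otherwise not tested. None of these 13 refits called Ugp2, Ugdh or Uxs1, with limma adjusted p from 0.166 to 0.995 for Ugp2, 0.537 to 0.995 for Ugdh and 0.969 to 0.997 for Uxs1. Ugp2 ran from 0.66 to 0.92 and Ugdh from 0.27 to 0.79, and their direction held in every refit. Uxs1 ran from -0.14 to 0.057 with 1 array left out and changed direction in 4 of those 6 refits. The block moves no difference; with it the limma adjusted p was 0.195 for Ugp2, 0.822 for Ugdh and 0.981 for Uxs1, and it changed no call of the 3 enzymes. The median of 6 of the 9 lists changed sign when 1 array was left out. Each enzyme had a single probe set, so a comparison between probe sets could not be made. The dim probe sets may have little signal over background, which could not be judged because no detection calls were used.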
